A study of Mus musculus with 6 samples.

Results

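The 10 genes described here encode adhesion molecules of the node of Ranvier and the paranode, with the spectrins and ankyrins that anchor them. They were taken by symbol: the adhesion genes Nfasc, Nrcam, Cntn1, Cntn2 and Cntnap1, and the scaffold genes Sptan1, Sptbn1, Sptbn4, Ank2 and Ank3. All 10 were found among the 46983 features of the deposited table, and all 10 passed the filter on low values, as did 15153 features in all. The libraries were made from oligodendrocytes, the myelin-forming glia of the central nervous system, isolated from the brains of mice of an FvB/C57BL6 hybrid strain and not cultured. There were 2 groups of 3 libraries. Qk-KO mice (Plp-CreERT2;QKLoxP/LoxP, genotype label Qk-/-) carry floxed Qk and a tamoxifen-dependent Cre, so Qk is lost in cells in which the Plp promoter is active. The other group is labelled WT, and the labels do not state its Cre or floxed alleles. Tamoxifen was given to both groups at an age of 8 weeks, and cells were isolated 4 days afterwards. Nothing in the labels ties a library to its own mouse, and p-values therefore reflect only how far these libraries vary, which may be technical.

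Myelinated axons carry their sodium channels at nodes, short gaps between myelin segments. Beside each node, the paranodal loops of the oligodendrocyte are held to the axon by glial neurofascin facing a complex of contactin-1 and Caspr (the product of Cntnap1). Further out lies the juxtaparanode, where contactin-2 is found on both the glial and the axonal membrane and potassium channels gather. Below these membranes, spectrin tetramers and ankyrins tie the adhesion molecules to actin. Some of these proteins are made mainly by the neuron (Caspr, beta-IV spectrin), others by both cells, and Nfasc and Ank3 give different isoforms in glia and neurons. The deposited table has 1 value per gene, so isoforms were not separated.

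Quaking, the product of Qk, is an RNA-binding protein known to bind an ACUAAC or ACUAAU core in RNA. These cores were therefore looked for (as ACTAAC or ACTAAT, sense strand) in the 3′ untranslated region of 1 GENCODE M21 transcript per gene. Of the 10 genes, 4 held at least 1 core, against 33% of the 13323 tested genes that have such a region. The 7 sites found are shown because they are the stretches in which a quaking core can be read directly. Each is a window of 30 bases, with the core in capitals:
Nrcam, chr12:44599151-44599180, plus strand: acagttgcatccACTAATgctcgctgagac
Sptbn1, chr11:30107044-30107073, minus strand: aaagcactctgaACTAATtcctaaagagaa
Ank2 site 1, chr3:126922644-126922673, minus strand: tcttctcattacACTAATggttttcactct
Ank2 site 2, chr3:126921715-126921744, minus strand: catggtgataacACTAATtgaatatatcta
Ank2 site 3, chr3:126921661-126921690, minus strand: aaacaatacaacACTAACaatacatagctg
Ank3 site 1, chr10:70024253-70024282, plus strand: tctcggacccaaACTAACtgtcagggtata
Ank3 site 2, chr10:70026683-70026712, plus strand: agcttctacataACTAATaacagaatataa
Coordinates are on mm10. Ank2 site 2 and Ank3 site 2 also had a second TAAC or TAAT within 20 bases of the core. Whether a core occurs depends on length: among regions within 25% of the same length, 47.6% held a core for Nrcam (2173 bases), 48.1% for Sptbn1 (2217 bases), 50.4% for Ank2 (2343 bases) and 65.5% for Ank3 (3627 bases). No core was in the regions scanned for Cntn2 (3752 bases, 66.8% of regions of like length hold one), Nfasc (5730 bases, 79.8%), Cntn1, Cntnap1, Sptan1 or Sptbn4. Introns and coding sequence were not scanned, and these matches say nothing about binding in these cells.

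The libraries differed in ribosomal RNA. Ribosomal features, 4 in number, took 59.8% to 64.8% of the signal in all WT libraries and in Qk-KO replicate 1, and 2.23% and 1.88% in Qk-KO replicates 2 and 3. Outside them, 8.70 M to 13.1 M reads (M, mega) were estimated in the former libraries, and 77.1 M and 70.0 M in the latter. The libraries with little ribosomal RNA are all Qk-KO, so Qk-KO replicate 1 against the 3 WT libraries is the only comparison within a library type. It shares the WT libraries with the full comparison, and the spread of its single Qk-KO library is taken to be that of the WT libraries. Its p-values therefore do not allow for the spread among Qk-KO libraries. Entering library type in the model gives the same change by construction, with a different error. Those settings are therefore not separate checks where both are named below. Qk itself was 15.41, 15.67 and 15.31 in WT on the log2 scale, and 16.10, 15.62 and 15.30 in Qk-KO (0.21 ± 0.25, limma adjusted p = 0.567). A value per gene does not separate the deleted exons, so it checks nothing about the labels.

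Levels are compared between genes as normalized counts per kilobase of exon. In WT, Cntn2 was the most abundant of the 10 at 3374 ± 393 (SD, n = 3) and Nfasc the second at 2168 ± 109. They stood above 99.1% and 98.7% of tested genes. Sptbn1 (1381 ± 87.2), Sptan1 (628 ± 36.7), Ank2 (451 ± 41.7), Cntn1 (354 ± 56.9), Ank3 (277 ± 29.1) and Nrcam (216 ± 4.46) followed. Cntnap1 (31.0 ± 9.03) and Sptbn4 (12.9 ± 7.49), which neurons are known to express, were lowest, above 23.0% and 9.49% of tested genes. For every neighbouring pair in this order the WT libraries did not overlap, although exon lengths summed over all annotated isoforms may overstate the transcript of genes with many isoforms such as Ank2 and Ank3. In Qk-KO, Ank3 (365 ± 73.3) stood above Cntn1 (346 ± 21.6), but its libraries overlapped those of Ank2 (396 ± 34.7) and of Cntn1, and those of Cntnap1 (17.2 ± 1.36) and Sptbn4 (16.5 ± 2.35) overlapped as well. The other neighbours in that order did not overlap.

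**Figure D1:**
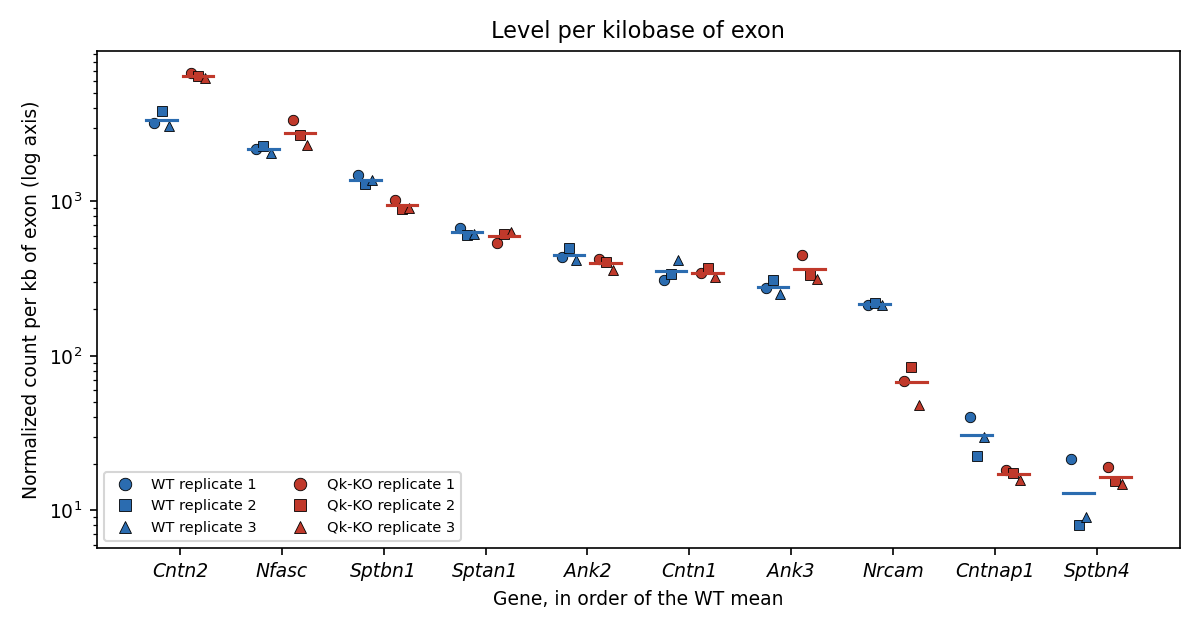
Normalized count per kilobase of exon (log axis) for each of the 10 genes in order of the WT mean, with a point for each library (blue for WT, red for Qk-KO, a symbol per replicate) and a line at each group mean. Cntn2 lies near 3374 in WT and 6490 in Qk-KO, and Cntnap1 and Sptbn4 lie far below the other genes.

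The design compares Qk-KO with WT. Of the 10 genes, Cntn2 was higher in Qk-KO, Nrcam, Cntnap1 and Sptbn1 were lower, and 6 were not called (limma on the deposited log2 values, Benjamini-Hochberg adjusted p under 0.05 over all 15153 features). This call rate is to be read against the 28.6% of all tested features that were called, 13.8% higher and 14.8% lower. The groups did not overlap in 6 of the 10 genes (3 higher, 3 lower), against 46.3% of all tested features (24.5% higher, 21.8% lower). The median change of the 10 was -0.05, beside 0.03 for all tested features. All changes below are Qk-KO minus WT in log2 units with limma's standard error (SE) and n = 3 libraries per group. They are relative to the scaling by the authors. When libraries were instead brought to equal total signal, ribosomal features included (library size alone), the median change of all features was 1.09 in place of 0.03. Cntnap1 (0.25) and Sptbn1 (0.50) turned to uncalled rises, and the call of Nrcam was lost (-0.66, adjusted p = 0.295). Of the 15153 features, 2382 were called higher and 65 lower under that scaling, so few falls of any gene were called there.

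**Figure D2:**
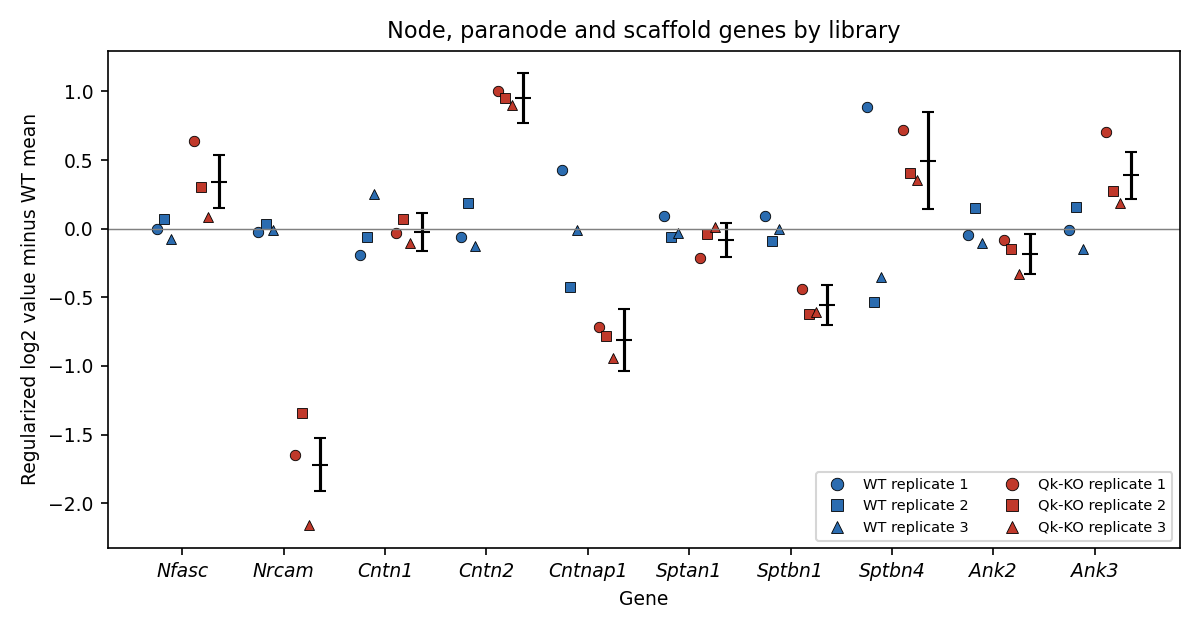
Deposited log2 value less the mean of the WT libraries, for each of the 10 genes, with a point for each library (blue for WT, red for Qk-KO, a symbol per replicate), with the Qk-KO change and its standard error in black. Cntn2 is the only called rise (0.95), and Nrcam (-1.72), Cntnap1 (-0.81) and Sptbn1 (-0.56) are the called falls.

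Among the adhesion genes, Cntn2 rose. It encodes contactin-2, a lipid-anchored immunoglobulin-domain protein of the juxtaparanode (ENSMUSG00000053024.14, chromosome 1, 132509427 to 132543256, minus strand, mm10). WT replicates 1 to 3 stood at log2 values of 14.87, 15.12 and 14.81, and Qk-KO replicates 1 to 3 at 15.93, 15.88 and 15.83. Every Qk-KO library was above every WT library, by 0.71 at the closest, and the Qk-KO libraries spanned 0.10. The change was 0.95 ± 0.18, a 1.93-fold higher level (adjusted p = 0.00728). Against WT, Qk-KO replicate 1 alone gave 1.0 (limma adjusted p = 0.0182), a comparison in which 15.5% of features were called. The call held under all 18 other settings, with changes from 0.77 with quantile normalization to 2.01 with library size alone. At least 12829 estimated reads lay behind each library's value. In the authors' deposited table the change was 1.09 ± 0.16 (SE, adjusted p = 1.2e-10), in a table that calls 27.9% of its tested features. Myelin and oligodendrocyte markers were higher in the same libraries, as given below, and their part in this rise was not tested.

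Nrcam fell the most of the 10. It encodes an L1-family adhesion molecule that joins neurofascin at the node and is also expressed by glia (ENSMUSG00000020598.15, chromosome 12, 44328885 to 44601964, plus strand). WT libraries had values of 11.47, 11.53 and 11.48, and Qk-KO libraries 9.84, 10.15 and 9.34. The WT libraries were nearly equal, while the Qk-KO libraries were spread over 0.815 and all far below WT. The change was -1.72 ± 0.19, a 3.29-fold lower level (adjusted p = 0.000708), and it was -1.65 in Qk-KO replicate 1 alone (adjusted p = 0.000405). It ranged from -1.91 without Qk-KO replicate 2 to -1.50 without Qk-KO replicate 3, and was called in both. The authors' deposited table gives -1.95 ± 0.25 (adjusted p = 4.0e-13). Astrocyte markers fell in the same Qk-KO libraries, most in replicate 3, where Nrcam was lowest, and their part in the fall was not tested.

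Cntnap1 encodes Caspr, the axonal partner of contactin-1 at the paranode (ENSMUSG00000017167.6, chromosome 11, 101170523 to 101190724, plus strand). It was weakly expressed, at 7.89, 7.04 and 7.46 in WT, against 6.75, 6.69 and 6.53 in Qk-KO. WT replicate 1 was the highest library and the groups did not overlap, but WT replicate 2 was only 0.29 above the highest Qk-KO library. The change was -0.81 ± 0.22 (adjusted p = 0.0294), and -1.31 ± 0.36 in the authors' deposited table (adjusted p = 0.00209). The call rests on few reads, about 63.5 to 119 in the WT libraries and Qk-KO replicate 1. It was lost without WT replicate 1 (-0.60, adjusted p = 0.0818), WT replicate 3 (0.0844), Qk-KO replicate 2 (0.0829) or Qk-KO replicate 3 (0.0596), without a filter on low values (0.0595), with library size less the ribosomal features as the scaling (0.0509), with library type in the model (0.190), and in Qk-KO replicate 1 alone (-0.71, 0.202). Those settings called 17.6%, 16.9%, 15.6%, 25.3%, 13.1%, 25.1%, 14.9% and 15.5% of tested features, in that order. Cntnap1 shares 233 exonic bases, 3.97% of its exons, with Plekhh3 on the opposite strand, which also fell (-0.62 ± 0.13, adjusted p = 0.0124). The strandedness of the counting is not given in the sources used here, so reads in the shared part cannot be assigned.

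Nfasc encodes neurofascin, whose glial isoform holds the paranodal loop to the axon (ENSMUSG00000026442.14, chromosome 1, 132564690 to 132741797, minus strand). In WT it was at 14.90, 14.98 and 14.83, in Qk-KO at 15.54, 15.20 and 14.99. All Qk-KO libraries were above all WT libraries, but replicate 3 by only 0.01 (WT replicate 2 being the highest of its group), and the change of 0.34 ± 0.20 was not called (adjusted p = 0.218). In Qk-KO replicate 1 alone it was 0.64 with an adjusted p of 0.0556. Nfasc lies 21.4 kb from Cntn2 on the same strand, and the 3 other tested genes within 50 kb of the pair were not called: Dstyk (0.28 ± 0.12), Rbbp5 (0.19 ± 0.13) and Tmem81 (-0.12 ± 0.17). The rise of Cntn2 was thus not matched by a called change in any tested gene beside it.

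Cntn1, which encodes contactin-1 (ENSMUSG00000055022.14, chromosome 15, 92051165 to 92341967, plus strand), was close in the 2 groups. WT libraries stood at 11.50, 11.63 and 11.94, Qk-KO libraries at 11.66, 11.76 and 11.58, and all Qk-KO libraries lay inside the WT range. The change was -0.02 ± 0.14 (adjusted p = 0.923).

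Among the scaffold genes, Sptbn1 fell. It encodes beta-II spectrin, the beta chain of the membrane skeleton along axons and in many other cells (ENSMUSG00000020315.18, chromosome 11, 30099395 to 30268175, minus strand). The WT libraries had 14.65, 14.47 and 14.56, the Qk-KO libraries 14.12, 13.94 and 13.95. The groups did not overlap, and the change was -0.56 ± 0.14, a 1.47-fold lower level (adjusted p = 0.0230). The authors' deposited table gives -0.64 ± 0.14 (adjusted p = 9.1e-05). The call was lost without WT replicate 1 (-0.51, adjusted p = 0.0882), WT replicate 3 (0.0753), Qk-KO replicate 2 (0.116) or Qk-KO replicate 3 (0.0569), with library type in the model (0.114), and in Qk-KO replicate 1 alone (-0.44, 0.128). Depth was high, with at least 10775 estimated reads per library.

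Sptan1 encodes alpha-II spectrin, the alpha chain that pairs with the beta spectrins (ENSMUSG00000057738.13, chromosome 2, 29965560 to 30031451, plus strand). It was 13.13, 12.97 and 13.00 in WT, against 12.82, 12.99 and 13.04 in Qk-KO. The groups overlapped, and the change was -0.08 ± 0.12 (adjusted p = 0.649).

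Sptbn4 encodes beta-IV spectrin of nodes and axon initial segments (ENSMUSG00000011751.16, chromosome 7, 27356383 to 27447686, minus strand). It was 7.68, 6.26 and 6.44 in WT, against 7.52, 7.20 and 7.15 in Qk-KO. WT replicate 1 lay above all Qk-KO libraries and the other WT libraries below them, so the groups overlapped and the change of 0.49 ± 0.35 was not called (adjusted p = 0.320). Without WT replicate 1 it was called higher (0.94, adjusted p = 0.0211). About 36.8 to 103 reads per library lay behind the WT values. The labels' sample numbers fall into a lower series (WT replicate 1, Qk-KO replicates 1 and 2) and a higher series (WT replicates 2 and 3, Qk-KO replicate 3). The change of Sptbn4 was -0.32 within the lower series and 0.80 within the higher, each over 3 libraries and without a test. Opposite directions in the series were also seen for Cntn1 (0.21 and -0.20) and Sptan1 (-0.22 and 0.06).

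The ankyrins, adaptors between spectrin and membrane proteins, were not called. Ank2 encodes ankyrin-B (ENSMUSG00000032826.16, chromosome 3, 126921612 to 127499350, minus strand). It was 13.90, 14.09 and 13.84 in WT, against 13.86, 13.80 and 13.61 in Qk-KO, with overlapping groups (-0.19 ± 0.14, adjusted p = 0.357). Ank3 encodes ankyrin-G, which clusters channels at the node (ENSMUSG00000069601.13, chromosome 10, 69398773 to 70027438, plus strand). It was 13.22, 13.39 and 13.09 in WT, against 13.93, 13.51 and 13.41 in Qk-KO. Every Qk-KO library of Ank3 was above every WT library, by 0.03 at the closest, and replicate 1 was the highest. The change was 0.39 ± 0.17 (adjusted p = 0.127). In Qk-KO replicate 1 alone the change was 0.70, and by construction the same when library type entered the model, where it was called (adjusted p = 0.0313). Ank3 was also called under library size alone (1.45, adjusted p = 0.0490, where 16.1% of features were called).

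**Figure D3:**
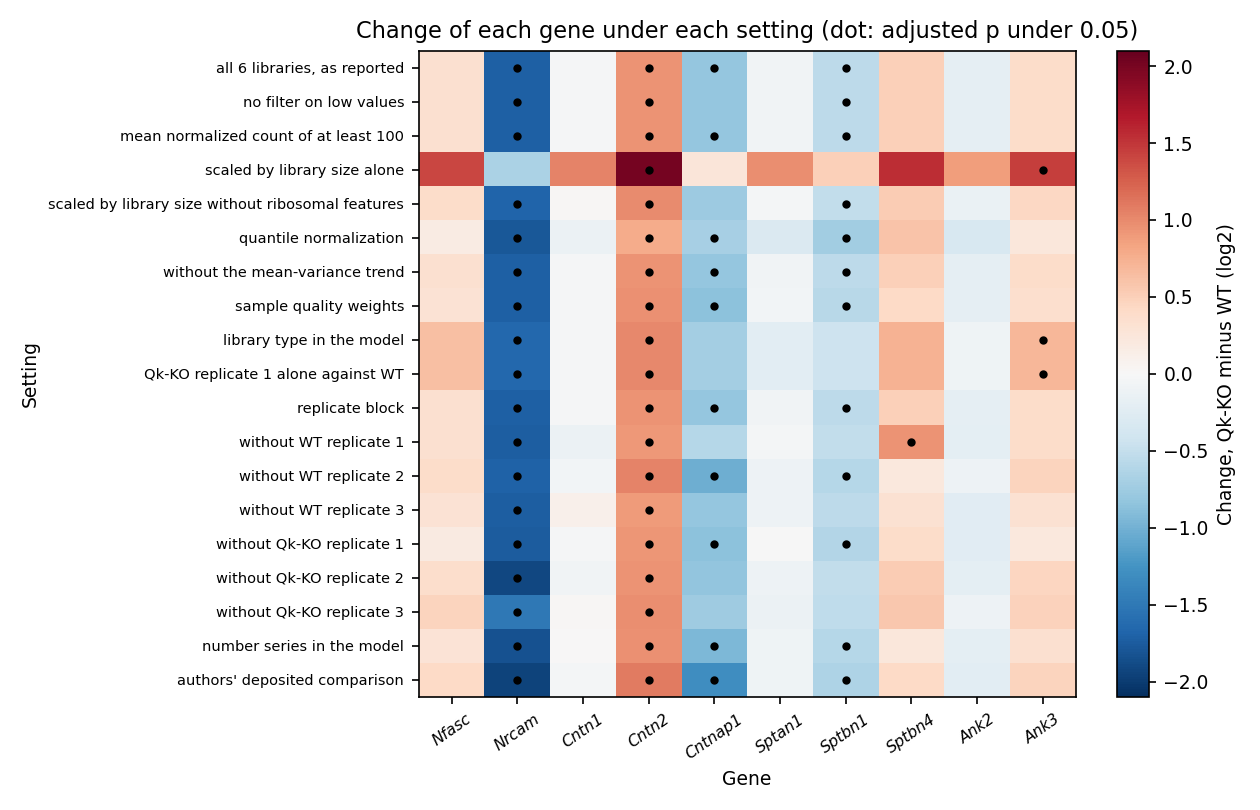
Change of each of the 10 genes (columns) under each setting (rows), coloured from blue (lower in Qk-KO) to red (higher), with a dot where the adjusted p is under 0.05. Cntn2 is called in every row, Nrcam in all but the row scaled by library size alone, and Cntnap1 and Sptbn1 in some rows only.

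Ratios of related genes within a library do not depend on a factor by which the whole library is scaled, though quantile normalization, which is not such a factor, can move them. They were taken for 6 pairs, with an exact two-sided permutation test over the 6 libraries. With 3 against 3 libraries this exact test cannot give less than 0.1, and every pair gave an exact p = 0.1 (0.1 after Benjamini-Hochberg adjustment over the 6 pairs), so none could pass 0.05. A ratio shows unequal change of its genes, not which of them changed.

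The log2 ratio of Nrcam to Nfasc, both L1-family genes, was -3.43, -3.45 and -3.35 in WT, against -5.70, -5.05 and -5.66 in Qk-KO, a difference of -2.06. The ratio of Cntn1 to Cntn2 went from -3.24 ± 0.33 (SD, n = 3) to -4.21 ± 0.08. The ratio of Cntnap1 to Cntn1, which form the axonal side of the paranodal complex, went from -4.23 ± 0.54 to -5.02 ± 0.09, and its difference of -0.79 was -0.48 without WT replicate 1. In each of these 3 pairs the Qk-KO libraries lay below the WT libraries.

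In the spectrins, the ratio of Sptbn1 to Sptan1 was 1.52, 1.49 and 1.56 in WT, against 1.30, 0.94 and 0.91 in Qk-KO. Beta-II spectrin RNA was lower against its alpha chain in every Qk-KO library, least in replicate 1. The ratio of Ank2 to Ank3 was 0.68, 0.70 and 0.75 in WT, against -0.07, 0.29 and 0.20 in Qk-KO. The WT libraries of both ratios spanned 0.06 and 0.07, and the Qk-KO libraries lay apart from them. The ratio of Sptbn4 to Sptbn1 was -6.97, -8.21 and -8.11 in WT, against -6.60, -6.74 and -6.80 in Qk-KO, higher in Qk-KO but with WT replicate 1 close to it.

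**Figure D4:**
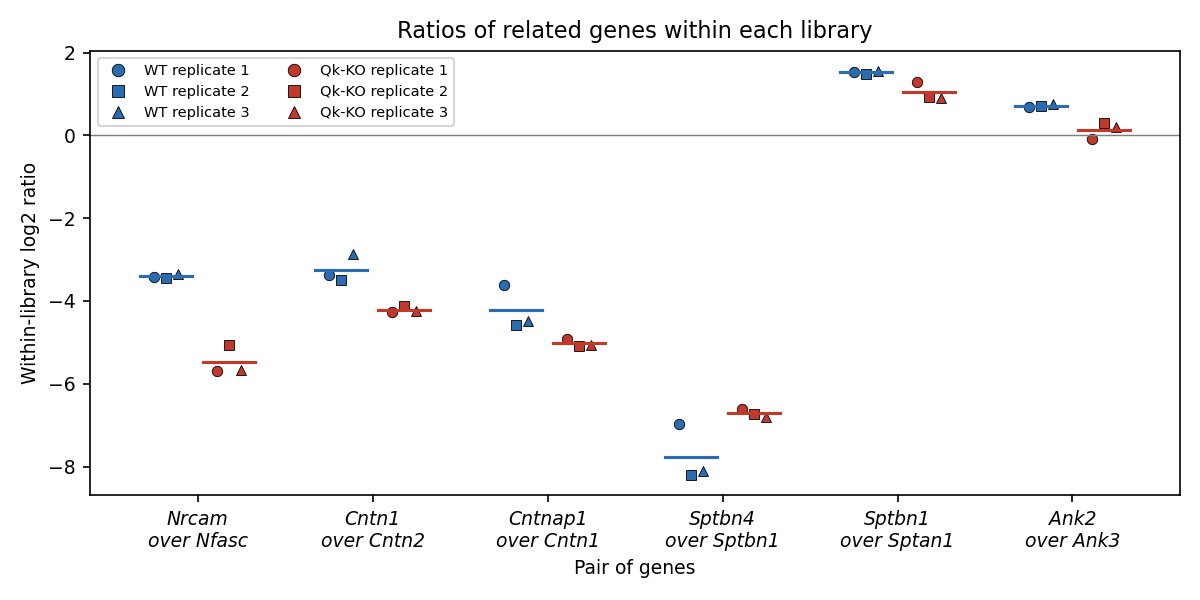
Within-library log2 ratio for 6 pairs of related genes, with a point for each library (blue for WT, red for Qk-KO, a symbol per replicate) and a line at each group mean. The ratio of Nrcam to Nfasc lies between -3.45 and -3.35 in WT and between -5.70 and -5.05 in Qk-KO, and the ratio of Ank2 to Ank3 falls from 0.71 to 0.14.

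Other genes of the same structures were read from lists chosen by function. Of 13 juxtaparanode genes, 3 rose and 2 fell, beside 13.8% and 14.8% of all tested features, with a median of 0.12 that was 0.30 without WT replicate 1. Leaving out Qk-KO replicate 3 gave 5 rises, and leaving out either WT replicate 1 or 3, or Qk-KO replicate 2, gave 2. Falls numbered 1 when a WT library or Qk-KO replicate 2 was left out and 3 when Qk-KO replicate 1 was. Lgi3, a secreted ligand of the ADAM22 receptor, rose by 0.96 ± 0.16 (adjusted p = 0.00388), and Adam22 itself by 0.72 ± 0.12 (0.00437). Lgi1, another secreted ligand of that receptor, fell by 2.47 ± 0.21 (0.000215), from 9.28, 9.29 and 9.12 in WT to 7.23, 6.48 and 6.57 in Qk-KO. The potassium channel genes Kcna1 (0.49, adjusted p = 0.0921) and Kcna2 (0.43, 0.164) and Cntnap2, which encodes the partner of contactin-2 (-0.09, 0.692), were not called. These 3 were named after their values were seen. In Qk-KO replicate 1 alone the median change of the 13 genes was 0.30. With library size alone 6 of the 13 rose and none was called lower (Lgi1 at -1.41, adjusted p = 0.0729). Of all 15153 features, 2382 were called higher and 65 lower under that scaling.

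Nodal matrix genes showed falls only among their called members. Of 10 tested, 5 fell and none rose (median -0.54), against 14.8% of all features called lower. The changes were -2.15 ± 0.16 for Bcan, which encodes brevican (adjusted p = 0.000127), -2.35 ± 0.26 for Ncan, which encodes neurocan (0.000649), and -1.92 ± 0.23 for the link protein gene Hapln1 (0.000927). Hapln2 (-0.73) and Omg (-0.59) also fell. These falls were not called with library size alone, where none of the 10 was called and the median was 0.52. Astrocytes and precursors are known to express several of these genes, and astrocyte markers fell in the same libraries; their part was not tested. Of 10 tested nodal ion channel genes 1 was called, beside 28.6% of all tested features. This was Kcnk2, a two-pore-domain potassium channel gene (-1.0 ± 0.23, adjusted p = 0.0156). Its adjusted p rose past 0.05 when any of 3 libraries was left out (0.0516 for WT replicate 2, 0.0617 for WT replicate 3, 0.0606 for Qk-KO replicate 2), and in Qk-KO replicate 1 alone (-0.52, 0.194). The sodium channel gene Scn8a (0.06 ± 0.18) and the potassium channel gene Kcnq3 (0.30 ± 0.20) were not called, but Kcnq3 was called higher in Qk-KO replicate 1 alone (0.72, adjusted p = 0.0241).

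Relatives of the 10 genes were split. Of 6 tested contactin and L1-family relatives 1 rose and 1 fell, beside 13.8% of all features called higher and 14.8% lower. Cntn3, a further contactin, rose by 1.30 ± 0.14 (adjusted p = 0.000541), and Chl1, an L1-family gene like Nrcam, fell by 1.53 ± 0.27 (0.00489). Cntn3 was 8.15, 8.02 and 8.14 in WT, against 9.54, 9.47 and 9.19 in Qk-KO, and it was called under library size alone as well (2.35), whereas Chl1 was not (-0.47). Of 12 tested spectrin and ankyrin relatives and adaptors, 3 rose and none fell, with a median of 0.04 and 13.8% of all features called higher. These were the protein 4.1N gene Epb41l1 (0.74 ± 0.11), the actin-capping tropomodulin gene Tmod1 (0.72 ± 0.13) and the adducin gene Add1 (0.81 ± 0.17), with adjusted p-values of 0.00217, 0.00597 and 0.00935. The count of 3 held when any library was left out and was 2 in Qk-KO replicate 1 alone. Of 8 internodal adhesion genes, Cadm4 (0.57 ± 0.13) and Mag (1.11 ± 0.24) rose, and Cadm2 (-1.27 ± 0.20) and Nectin3 (-0.91 ± 0.21) fell, beside 13.8% of all features higher and 14.8% lower. When either WT replicate 1 or 3, or Qk-KO replicate 2, was left out no gene of this list was called higher, and with either of those WT libraries left out 1 was called lower. Cadm4, which encodes a glial adhesion molecule of the internode, and Mag were not called in Qk-KO replicate 1 alone (0.44 and 0.78). The median change of the list was 0.22 there, against 0.06 with all libraries. Neither Cadm2 (-0.21) nor Nectin3 was called with library size alone.

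**Figure D5:**
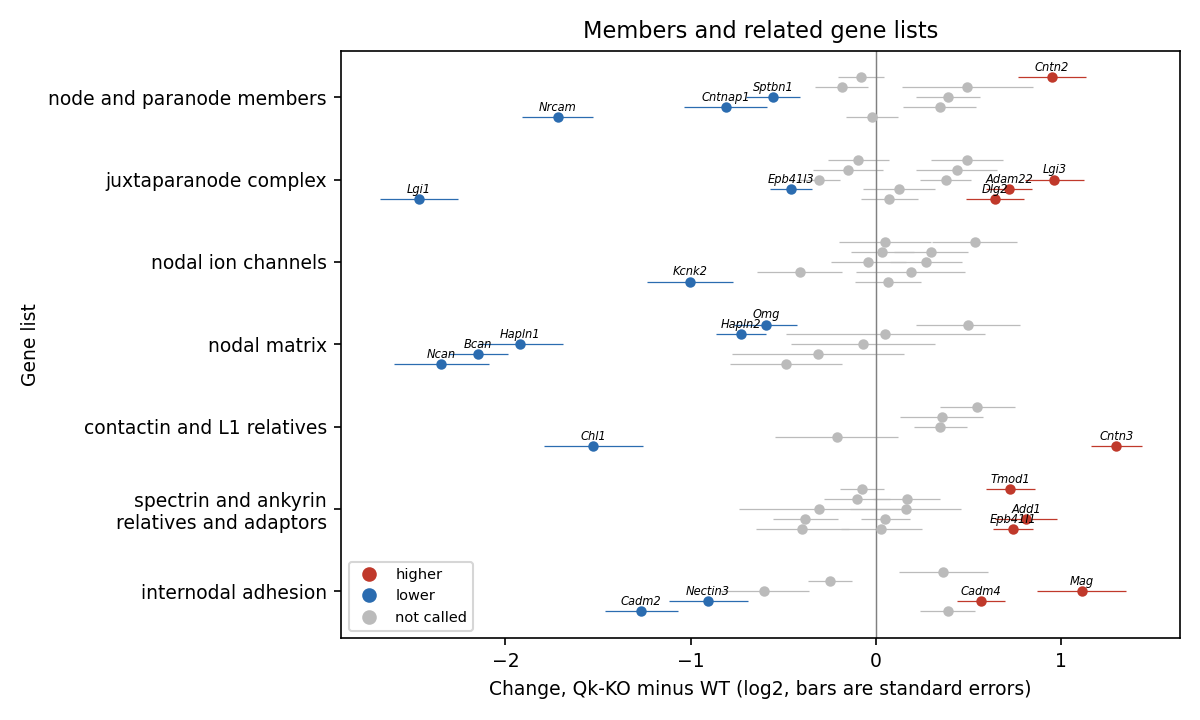
Change of each tested gene (log2, with its standard error) by list, red for called higher, blue for called lower, grey for not called. The nodal matrix list holds called falls and no called rise, the spectrin and ankyrin relatives called rises and no called fall, and the 10 genes themselves hold both.

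Marker genes of several cell types such a preparation can hold moved between the groups. Their counts are to be read beside the 13.8% of all tested features called higher and the 14.8% called lower. The counts of the precursor, ependymal and neuronal lists lie near those shares. Of 12 mature oligodendrocyte markers 7 rose and none fell (3 rose when either WT replicate 1 or 3, or Qk-KO replicate 2, was left out), and their summed normalized count was 552177 to 718449 in WT and 741963 to 839656 in Qk-KO, so the labelled cell type was present in all libraries. Mag stands both on this list and on the internodal list. Of 12 astrocyte markers 11 fell, and their sum went from 149972 to 186833 in WT to 19877 to 31421 in Qk-KO, lowest in Qk-KO replicate 3. The exception was Gfap, whose change of 0.81 was not called (adjusted p = 0.0526). All 10 endothelial markers fell, with sums of 27153 to 38149 in WT and 16287 to 17392 in Qk-KO, as did 7 of 8 mural markers (20288 to 23928 and 11127 to 12384). With library size alone none of these vascular markers was called lower, and the medians turned from -0.86 to 0.20 (endothelial) and from -0.81 to 0.25 (mural), while 7 astrocyte markers were still lower. Of 10 microglia markers 4 rose (none fell), with sums of 6906 to 11134 in WT against 15966, 17063 and, far above the rest, 58565 in Qk-KO replicates 1 to 3. Their count of rises was 1 without WT replicate 2 or WT replicate 3, and 6 without Qk-KO replicate 1. Their median change was 1.21, and 0.82 with library type in the model, where none was called. Of 10 precursor markers 2 fell and none rose, with sums of 31456 to 46401 in WT and 23101 to 38782 in Qk-KO. No fall was called with library size alone or with library type in the model. The median change of the precursor list was -0.27, and 0.49 with library type in the model. Of 6 ependymal markers 1 fell (732 to 1136 in WT and 710 to 1193 in Qk-KO). That call was kept without Qk-KO replicate 3 and lost without any other single library. Of 12 neuronal markers 2 rose and none fell, with sums of 1854 to 2053 in WT and 2412 to 4240 in Qk-KO. The rise in the neuronal sum lay mainly in Tubb3 (572 to 928 in WT, 943, 3056 and 3073 in Qk-KO replicates 1 to 3). Only Qk-KO replicates 2 and 3, the libraries with little ribosomal RNA, stood far above WT for Tubb3. The part of library type in this was not tested. Without Tubb3 the groups overlapped, at 1125 to 1282 in WT and 1470, 1185 and 994 in Qk-KO. The median change of the list was 0.00. The other called rise was Slc17a7 (0.82 ± 0.18, limma adjusted p = 0.0112). It was 5.81, 5.47 and 5.71 in WT, against 6.66, 6.55 and 6.24 in Qk-KO replicates 1 to 3. Stmn2 (-0.34) and Nefm (-0.52) were lower in every Qk-KO library but not called. The 2 rises were 0 without Qk-KO replicate 2, and 1 without any single WT library or Qk-KO replicate 3. The part of neuronal RNA in the values of Cntnap1 and Sptbn4 was not tested. Tubb3, Slc17a7, Stmn2 and Nefm were named after their values were seen. None of the markers on these lists was without reads. In such bulk libraries fewer cells of a type and less RNA per cell cannot be told apart.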

How the data were processed

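The submitters' processing notes list FastQC, TopHat2 2.0.14, featureCounts and DESeq2 on build mm10 as the tools of the authors. Which annotation release and strand setting the authors used is not given in the sources used here. Each library has its own column of values in that table, headed only by a sample number. No label names the scale of these values. From their behaviour they were read as regularized log2 values (shrunken where reads are few). Per its header, a further column holds a signal, the authors' mean of normalized counts over the 6 libraries. The authors' deposited comparison gives log2 fold changes with errors, a Wald statistic as a score, and raw and adjusted p-values.

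Features whose mean normalized count reached 20 were tested with limma 3.58.1 (mean-variance trend, R 4.3.3), genotype as the only term, with Benjamini-Hochberg adjustment over all 15153 and calls under 0.05. No pseudocount was added. The fit was tested on simulated data. Permutation tests were exact. Size factors came from the steps of the lowest mean normalized counts (0.447 to 0.617, but 4.15 and 3.78 in Qk-KO replicates 2 and 3), and back-transformed values times these factors gave estimated reads. Levels per kilobase used the union of GENCODE M21 exons, of the same build, to which 46488 of 46983 identifiers matched. The principal, then longest, coding transcript of each gene was scanned for cores. Alternatives tried were other filters, scalings, variance models, library type, replicate block, number series and each library left out.

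All 10 members are named. From each related list up to 3 called genes by adjusted p are named and, where fewer than 2 were called, the 2 most abundant. Hapln2, Omg, Nectin3, Plekhh3 and the neighbours of Cntn2 were named after their values were seen. The members and lists were chosen with earlier results of these data known.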

Additional observations from a re-analysis of the deposited data

How the results depend on the processing

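The number of the 10 genes called was 1 higher and 3 lower. It was 2 higher and 0 lower with library size alone, and 2 higher and 1 lower with library type in the model and in Qk-KO replicate 1 alone. Leaving out 1 library gave 1 to 2 higher and 1 to 3 lower. All features called were 4330, against 2447 with library size alone, 2258 with library type in the model, 2355 in Qk-KO replicate 1 alone and 2370 to 5633 without 1 library. With library size alone Cntn1 (1.04), Cntnap1 (0.25), Sptan1 (0.98), Sptbn1 (0.50) and Ank2 (0.87) changed sign. Cntn1, near 0 in the other settings, also did so when the ribosomal features were left out of the scaling (0.022). It ranged from -0.12 to 0.10 with 1 library left out, being above 0 without WT replicate 3 (0.10) or Qk-KO replicate 3 (0.02). A model that holds the number series, added after the data were seen, gave it 0.0041. The pair ratios kept their sign without any 1 library and with quantile normalization, an alternative added for them later, where Cntnap1 over Cntn1 was -0.58 and Sptbn4 over Sptbn1 1.32. The replicate block gave 1 higher and 3 lower of the 10 genes, the calls for each as without it, and 4345 features. Same-numbered libraries had deviations correlated by 0.10, 0.005 and 0.08, and differently numbered ones by -0.12 to 0.06. With 3 libraries per group this cannot show whether same-numbered libraries share more than a number. Few reads limit Cntnap1 and Sptbn4. The iteration for sample quality weights stopped before full convergence, and why the other counts moved was not tested.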
